A study of Mus musculus with 6 samples.

Results

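The subject here is the small nuclear RNA (snRNA) genes of the mouse heart, measured in small RNA libraries of Elac2 knockout and control mice. A gene was included when the authors' table gave its type as snRNA and its raw counts over the 6 libraries summed to 30 or more. That left 52 genes of 1385 snRNA rows, in a table of 30638 features. Of the other snRNA rows, 1043 had no count at all and 290 had between 1 and 29 counts, holding 1324 counts together against 65898 in the 52 genes. The choice used the sum over both groups, and 9 of the 52 reached the minimum with control counts alone but not with knockout counts alone. Just inside the limit was Gm25189 with 30 counts, and just outside was Gm26361 with 28. An Rnu symbol, which names an annotated snRNA gene, was carried by 9 of the 52, and 43 had a Gm symbol, which names a predicted gene or copy.

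The 3 control mice (L/L) carried an Elac2 allele with an exon between loxP sites and no cre, and their genotype label is Elac2 +/+. The 3 knockout mice (L/L, cre) carried the same allele with cre driven by the muscle creatine kinase promoter, and their genotype label is Elac2 -/-. All were on the C57BL/6 background, no source used here states their age, and RNA came from whole hearts, so heart cells in which that promoter is silent could keep the gene. Each mouse gave 1 column of counts, and the design text states 4 technical replicates per mouse. ELAC2 is the RNase Z that removes 3′ trailers from tRNA precursors, both nuclear and mitochondrial. The Elac2 transcript was not measured here, so the knockout itself was not checked on these libraries.

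Spliceosomal snRNAs are the RNA cores of the particles that remove introns from precursor mRNA. U1 pairs with the 5′ splice site, U2 with the branch point, and U4, U5 and U6 join as a second particle before the first cut. A less abundant minor spliceosome uses U11, U12, U4atac and U6atac for a rare class of introns and shares U5. U7 belongs to no spliceosome and guides the cut at the 3′ end of replication-dependent histone mRNAs. RNA polymerase II makes all of these except U6 and U6atac, which RNA polymerase III makes. The RNA polymerase II snRNAs carry a site that binds a ring of Sm proteins (Sm and Lsm proteins in U7). In muscle as in other tissues they are housekeeping RNAs. Among the 52 genes, U1, U2 and U5 had several similar copies, while U7, U11 and U12 had 1 gene each.

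The libraries held between 13510061 and 16248673 counts, with 4664 to 6018 features detected in controls and 2995 to 3160 in knockouts. Cardiomyocyte miRNA genes (7 of 7 with counts) summed to 117837 to 148037 CPM (counts per 1000000 counts of the scaled library, as below) in controls and 72669 to 93284 CPM in knockouts, and 2 of the 7 were called lower and 1 higher by the test described below. The single fibroblast miRNA gene of 3 with counts lay at 637 to 878 CPM in controls and 1233 to 1310 CPM in knockouts and was called higher, with Mir214 and Mir199a-2 at 0. Leukocyte miRNA genes (3 of 6 with counts) summed to 125 to 156 CPM in controls and 159 to 193 CPM in knockouts, with 2 genes tested, 1 called lower and 0 higher, and with Mir155 and Mir223 at 0. Endothelial Mir126a was at 19531 to 23763 CPM in controls and 17620 to 20972 CPM in knockouts, the 2 smooth muscle genes overlapped as well, and the 3 red cell genes summed to 2644 to 3696 CPM in controls and 2205 to 2921 CPM in knockouts, with 1 called lower and 1 higher. The part of these shifts in the snRNA values was not tested. In whole tissue, fewer cells of a type and less RNA per cell cannot be told apart.

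The snRNA genes took a smaller part of the knockout libraries. Their share of all counts was 0.0729%, 0.109% and 0.105% in the 3 controls and 0.0635%, 0.0425% and 0.0398% in the 3 knockouts. The groups did not overlap, but control replicate 1 and knockout replicate 1 lay close to each other. The mean share was 0.0955% ± 0.0197 (SD, n = 3) in controls and 0.0486% ± 0.0130 (SD, n = 3) in knockouts, a ratio of 0.509, which is described without a test. Without the first library of each group, a comparison added after the values were seen, the ratio was 0.385. Control replicate 1 was the lowest control for 40 of the 45 genes tested below, and knockout replicate 1 the highest knockout for 33 of them. After scaling of the libraries by the trimmed mean of M values (TMM), the summed level was 640, 997 and 912 CPM in controls and 669, 514 and 448 CPM in knockouts, and there the groups overlapped.

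Of the 52 genes, 45 passed the filter on low counts and were tested with edgeR's quasi-likelihood test over 1144 features. At an adjusted p under 0.05, 24 of the 45 were lower in the knockout and 0 were higher, and 0 were higher at an unadjusted p under 0.05 or by DESeq2's Wald test. Over all tested features 27% were called lower and 23.2% higher, 50.2% in either direction. Since 9 of the 52 genes reached the minimum through their control counts, these counts describe the set and do not support a direction for it. The groups did not overlap for 24 of the 45 genes, 23 of them with the knockout lower, against 63% of all tested features in either direction and 33.7% with the knockout lower. The log2 fold change (knockout over control) was below 0 for 41 of the 45, and its median was -0.93, beside -0.01 over all tested features. The authors' deposited table called 22 of the 51 genes that have an adjusted p there lower and 0 higher, beside 20.6% and 8.78% of all its features, and all 22 were among the 24.

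How the libraries were scaled moved these counts. Scaling on nuclear rRNA genes, added after the values were seen, gave 10 genes lower and 3 higher (Gm24407, Gm25202 and Rnu7), beside 19.9% and 34.5% of all features, and raised the median of all features by 0.50 on the log2 scale. Scaling on snoRNA and scaRNA genes gave 41 lower and 0 higher, beside 57.6% and 8.83% of all features, and lowered the median of all features, with a shift of -0.85. A set of 10 genes with 8 distinct sequences was lower under every scaling, without the filter and without each library in turn. Of the 7 genes with the Rnu1a1 sequence, though, 1 was lower with rRNA scaling (Rnu1a1 itself, adjusted p = 0.0493) and 4 without the filter. The call was therefore not kept by every copy of that sequence. The copies summed were not fitted under these settings. The 10 were Rnu1a1, Rnu1b1, Rnu1b2, Gm22614, Gm25890, Gm22042, Gm23686, Gm25704, Rnu11 and Gm25541. Of these, Gm23686, Gm25704, Rnu11 and Gm25541 reached the minimum sum of counts through control counts alone, so the choice of genes favoured their lower calls. The share of all tested features that stayed lower under every setting was not counted. Whether 10 such genes are unusual was therefore not tested. Without knockout replicate 3 the count lower was 18 and the median log2 fold change -0.53, with 430 of all features lower and 306 higher.

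**Figure D1:**
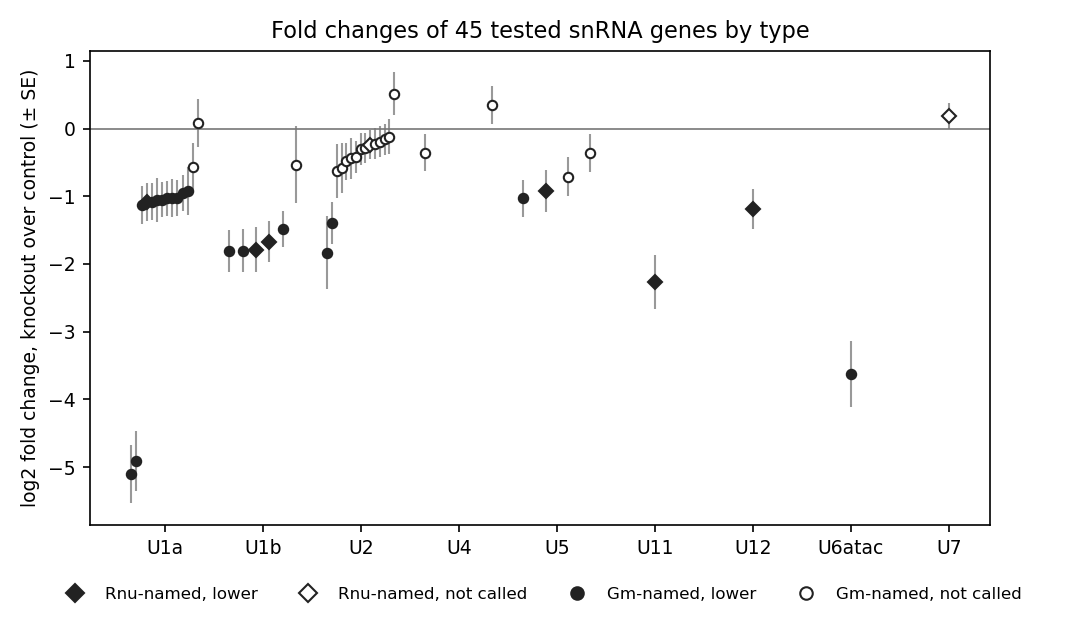
Log2 fold change, knockout over control, with its standard error, for the 45 tested snRNA genes grouped by type on the horizontal axis. Filled symbols mark genes called lower at an edgeR adjusted p under 0.05, diamonds mark Rnu-named genes and circles Gm-named genes. The 2 lowest points are the U1 copies Gm25704 and Gm23686, and most U2 points lie just below 0.

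Many of the 52 genes cannot be told apart by their reads. They have 38 distinct sequences in the GENCODE M21 transcripts on build GRCm38, and the 45 tested genes have 33. Rnu1a1 has 6 exact copies, and in control replicate 2 these 7 genes held between 506 and 560 counts each. In knockout replicate 3 the same 7 genes held between 107 and 125 counts. Over the 6 libraries the variance between these copies was 0.414 to 1.18 times their mean count, near the value of 1 that counting noise alone gives. No source used here says how the authors placed reads with several matches, so copies were not taken as separate measurements. With identical copies summed, an alternative added after the values were seen, 16 of 33 sequences were lower and 0 higher, beside 26.9% and 23.1% of all features, and the median log2 fold change was -0.72. Inserts were selected for 15 to 100 nt, while 51 of the 52 genes are longer than 100 nt, so no insert spans these RNAs whole. The counts of these 51 genes are of partial stretches, and the amount of whole snRNA was not measured.

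**Figure D2:**
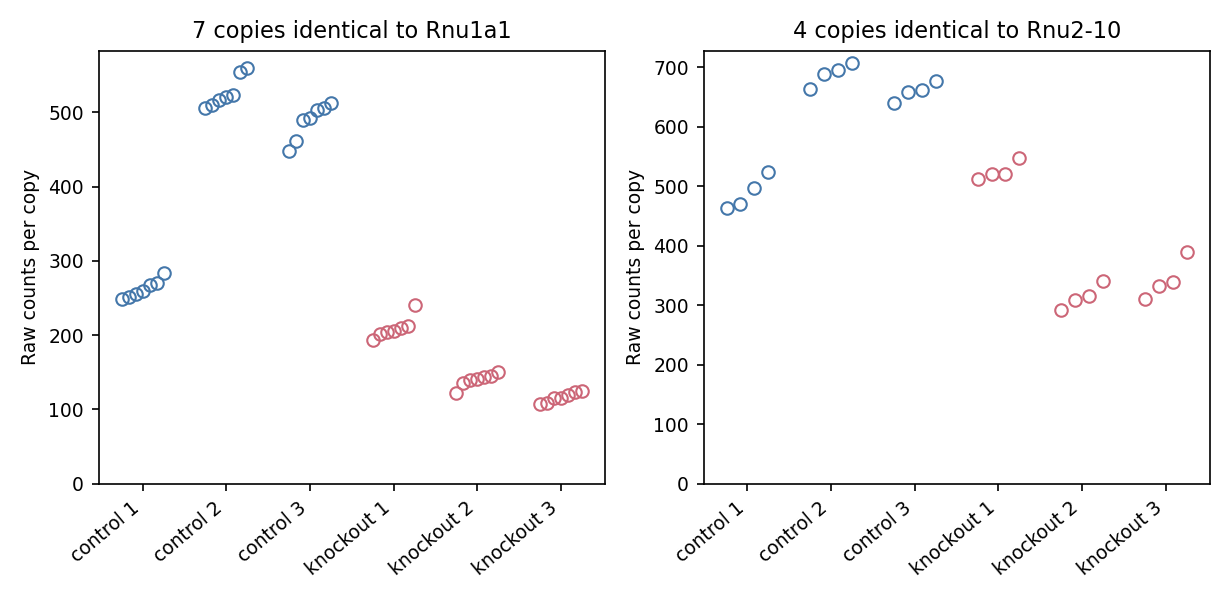
Raw counts of each gene copy in each of the 6 libraries, controls in blue and knockouts in red, for the 7 genes with the Rnu1a1 sequence (left) and the 4 with the Rnu2-10 sequence (right). Copies of 1 sequence mostly lie close together within a library, between 249 and 284 counts for the Rnu1a1 sequence in control replicate 1. The Rnu2-10 sequence spreads more in knockout replicate 3, between 310 and 389 counts.

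U1 was the largest group by number of genes and held the 2 largest falls. By sequence match 16 genes were nearest to Rnu1a1 (U1a) and 9 to the Rnu1b genes (U1b), which are variant U1 snRNAs, a split made after the values were seen. The 16 U1a genes have 10 distinct sequences and the 9 U1b genes have 5. Of the 14 U1a genes tested 12 were lower, with a median log2 fold change of -1.04. Of the 6 U1b genes tested 5 were lower, with a median of -1.73. Over all tested features 27% were lower. Rnu1a1 is shown first because it is the reference for the others, with the letters that pair with the 5′ splice site, ACTTACCT, in capitals. In the sequences after it, capitals mark every base that differs from Rnu1a1, inserted bases included.
Rnu1a1: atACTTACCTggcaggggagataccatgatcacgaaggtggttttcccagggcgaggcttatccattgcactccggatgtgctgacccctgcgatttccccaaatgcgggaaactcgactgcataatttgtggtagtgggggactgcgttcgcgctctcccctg
Rnu1b1: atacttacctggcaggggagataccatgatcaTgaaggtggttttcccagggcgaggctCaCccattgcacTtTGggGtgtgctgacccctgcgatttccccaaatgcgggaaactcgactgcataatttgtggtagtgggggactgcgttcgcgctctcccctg
Gm22614: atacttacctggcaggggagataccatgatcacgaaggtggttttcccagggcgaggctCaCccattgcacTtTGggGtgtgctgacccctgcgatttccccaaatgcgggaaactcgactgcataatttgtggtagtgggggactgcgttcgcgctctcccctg
Gm22042: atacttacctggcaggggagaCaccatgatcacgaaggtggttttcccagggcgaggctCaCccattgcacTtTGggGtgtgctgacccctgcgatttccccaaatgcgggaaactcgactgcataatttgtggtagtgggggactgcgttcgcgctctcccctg
Gm23686: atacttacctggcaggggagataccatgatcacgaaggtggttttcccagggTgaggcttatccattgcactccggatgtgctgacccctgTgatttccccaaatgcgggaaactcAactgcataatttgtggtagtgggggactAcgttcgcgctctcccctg
Gm25704: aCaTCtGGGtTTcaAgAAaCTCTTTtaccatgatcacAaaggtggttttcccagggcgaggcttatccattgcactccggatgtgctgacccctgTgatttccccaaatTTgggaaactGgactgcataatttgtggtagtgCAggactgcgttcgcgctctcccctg
The U1b differences sit mostly in 1 stretch in the middle of the RNA, Gm23686 has 4 scattered substitutions, and Gm25704 has 20 substitutions and 4 inserted bases, most of them at its 5′ end.

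Rnu1a1 (ENSMUSG00000095969.1, chr11:87422867-87423030, + strand) lies in an intron of Tex14 on the same strand. It was at 17.4, 28.7 and 28.0 CPM in controls and 14.8, 11.9 and 8.05 CPM in knockouts. Every knockout lay below every control, the nearest pair being the first library of each group. The means were 24.7 ± 6.32 and 11.6 ± 3.40 CPM (SD, n = 3 each), and the log2 fold change was -1.09 (SE 0.28, edgeR adjusted p = 0.00654). Its 6 identical copies ranged from -1.02 to -1.13 and all 6 were lower. Summed, the 7 genes had a log2 fold change of -1.08 (SE 0.26, edgeR adjusted p = 0.00481). A row of 7 U1a genes stands at chr12:54696782-54738622, and all 7 were lower. Of this row, Gm22317, Gm25679, Gm22634, Gm26444 and Gm23804 are among the 6 copies just counted. Gm22513 and Gm24305 differ from Rnu1a1 at 1 base each. The row is therefore not a separate measurement.

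The 5 U1b genes called lower had log2 fold changes from -1.48 to -1.81. They are not 5 separate measurements, since Rnu1b1 and Rnu1b2 share 1 sequence and Gm22614 and Gm25890 share another. Rnu1b1 (ENSMUSG00000095580.1, chr3:96359953-96360117, - strand) was at 9.49, 17.5 and 15.9 CPM in controls and 5.96, 4.03 and 3.46 CPM in knockouts. Its groups did not overlap, and its log2 fold change was -1.67 (SE 0.30, edgeR adjusted p = 0.000591). Rnu1b2 (ENSMUSG00000093834.1, chr3:96374021-96374185, + strand) has the same sequence as Rnu1b1, with 8.52, 18.3 and 16.3 CPM in controls and 5.67, 3.16 and 3.61 CPM in knockouts, and a log2 fold change of -1.79 (SE 0.33, edgeR adjusted p = 0.000727). Gm22614, named after its values were seen like Gm25890 and Gm22042, was at 8.97, 16.2 and 14.7 CPM in controls and 4.79, 4.67 and 4.82 CPM in knockouts. Its 3 knockout values were nearly equal and lay below every control, with a log2 fold change of -1.48 (SE 0.26, edgeR adjusted p = 0.000529). Gm25890, of the same sequence, was at 4.79, 3.56 and 3.91 CPM in knockouts, so the near equality was not shared by both copies. Gm25890 had a log2 fold change of -1.80 and Gm22042 of -1.81, and both were called lower. Summed, Gm22614 and Gm25890 had a log2 fold change of -1.65 (SE 0.27, edgeR adjusted p = 0.00037). A further U1b sequence, shared by Rnu1b6, Gm24830 and Gm26232, was not called. Gm24830, the only gene of these that passed the filter, had a log2 fold change of -0.53 (edgeR adjusted p = 0.46), and the 3 genes summed had -0.06 (SE 0.36, edgeR adjusted p = 0.905).

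The balance between the counts assigned to the U1 forms also differed. The U1b genes held 0.259, 0.299 and 0.308 counts per U1a count in controls and 0.188, 0.210 and 0.253 in knockouts. The highest knockout lay just under the lowest control. The mean ratio was 0.289 ± 0.0259 in controls and 0.217 ± 0.0330 in knockouts (SD, n = 3 each), a description with no test, since the ratio was formed after the values were seen. A ratio of counts within a library does not depend on library scaling. The 2 forms share most of their sequence, and how reads that match both were placed is not stated. The ratio is therefore one of assigned counts, and the amount of each form was not measured. Both sums also include genes that reached the minimum sum of counts through control counts alone.

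Gm25704 and Gm23686 dropped far more than any other U1 gene tested. Gm25704 (ENSMUSG00000065050.1, chr2:133008487-133008654, + strand) had 94, 217 and 200 raw counts in controls and 3, 2 and 6 in knockouts. Those counts correspond to 9.75 ± 3.22 CPM in controls and 0.276 ± 0.155 CPM in knockouts (SD, n = 3 each), a log2 fold change of -5.10 (SE 0.43, edgeR adjusted p = 3.86e-06). Gm23686 (ENSMUSG00000096391.1, chr3:18177462-18177625, - strand, in an intron of Cyp7b1 on the same strand) had 104, 255 and 248 raw counts in controls and 6, 7 and 2 in knockouts. For both genes all 3 knockouts held single-digit counts and every control held 94 or more. For Gm23686 the log2 fold change was -4.91 (SE 0.45, edgeR adjusted p = 5.4e-06). Both calls were made under each of the 16 alternatives, but both genes reached the minimum of 30 through control counts alone. Without these 2 genes the summed U1a level still did not overlap between the groups on the TMM scale, at 161, 276 and 250 CPM in controls and 144, 107 and 84.9 CPM in knockouts.

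The start of the RNA differs in 2 of the U1 genes. ACTTACCT, searched on the sense strand within the first 12 bases, was found in 23 of the 25 U1 genes and in 4.34% of the 1383 snRNA transcripts of the annotation. It was lacking in Gm25704 and in Gm25682. Gm25682, singled out after its values were seen and too low to pass the filter, held 33 control counts and 4 knockout counts. Like Gm25704 it reached the minimum of 30 through control counts alone, so its low knockout counts support no direction. An exon of the lincRNA Gm48281 lies on the other strand of Gm25682. Gm23686 keeps the motif. Gm23238, singled out after its values were seen, has 4 substitutions like Gm23686 but had a log2 fold change of 0.08 (SE 0.35, edgeR adjusted p = 0.864). An exon of the lincRNA AC134906.1 lies on its other strand. Whether the counting used strand is not stated, so reads of Gm23238 and this lincRNA cannot be told apart.

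U2, which pairs with the branch point, showed mostly small differences. Of the 15 U2 genes, all tested, 2 were lower and 0 higher, beside 27% and 23.2% of all tested features. Their median log2 fold change was -0.30. Rnu2-10 is shown with ATTTNT, a loose form of the Sm site, in capitals.
Rnu2-10: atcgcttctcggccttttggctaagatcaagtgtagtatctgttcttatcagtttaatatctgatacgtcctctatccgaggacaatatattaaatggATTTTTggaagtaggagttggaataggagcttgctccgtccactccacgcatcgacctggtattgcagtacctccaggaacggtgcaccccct
Rnu2-10 (ENSMUSG00000065944.1, chr11:101658238-101658428, + strand) was at 32.3, 39.8 and 36.0 CPM in controls and 37.8, 24.4 and 29.3 CPM in knockouts. Knockout replicate 1 lay within the control range, and the other two knockouts lay below it. The log2 fold change was -0.24 (SE 0.22, edgeR adjusted p = 0.379), and its sign turned without the filter, without knockout replicate 2 and with rRNA scaling. Gm23444 (chr11:83271498-83271688), the U2 copy with the most counts, was at 34.6, 43.3 and 40.7 CPM in controls and 45.4, 30.9 and 27.2 CPM in knockouts. Its groups overlapped, with a log2 fold change of -0.20 (SE 0.23, edgeR adjusted p = 0.495). Gm23472 (chr1:72236946-72237136), which has the same sequence, had a log2 fold change of -0.16 (SE 0.23, edgeR adjusted p = 0.577), and the sign of both turned without the filter, without knockout replicate 2 or 3 and with rRNA scaling. With snoRNA and scaRNA scaling all 3 were called lower, Rnu2-10 at -1.09.

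The 2 U2 genes called lower were rarer copies. Gm25106 (chr11:98473675-98473808, in an intron of Ikzf3 on the same strand) matches Rnu2-10 over 102 nt only and had 13, 12 and 13 raw counts in controls and 2, 5 and 1 in knockouts. Its counts were few, and every knockout lay below every control. It reached the minimum sum of counts through its control counts alone, with 38 in controls and 8 in knockouts. Its separation and its call are therefore a description and support no direction. The log2 fold change was -1.83 (SE 0.54, edgeR adjusted p = 0.0148), and the call was lost in 6 of 16 alternatives, among them leaving out knockout replicate 1 (adjusted p = 0.128) or knockout replicate 3 (adjusted p = 0.171), and the adjusted p ran from 0.000979 to 0.171 over the 16 alternatives. Gm25360 (chr1:72226240-72226430), named after its values were seen, had 68, 106 and 79 raw counts in controls and 37, 16 and 21 in knockouts. Its groups were well apart, with a log2 fold change of -1.40 (SE 0.31, edgeR adjusted p = 0.0026), and the call was lost with rRNA scaling (log2 fold change -0.93, adjusted p = 0.0568). It differs from Rnu2-10 at 4 bases.

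Set against U2 within the same library, U1 and U5 were lower in knockouts and U4 was not. U1a counts per U2 count were 0.707, 0.967 and 0.934 in controls and 0.464, 0.519 and 0.431 in knockouts. U1b counts per U2 count were 0.183, 0.289 and 0.288 in controls and 0.0872, 0.109 and 0.109 in knockouts. U5 counts per U2 count were 0.430, 0.657 and 0.590 in controls and 0.360, 0.371 and 0.333 in knockouts. None of these 3 ratios overlapped between the groups, and control replicate 1 was the lowest control in each. The U1a, U1b and U2 sums include genes that reached the minimum sum of counts through control counts alone. Among them are Gm23686 and Gm25704 in U1a, Gm24830 in U1b and Gm25106 in U2. The ratios without such genes were not formed. U4 counts per U2 count were 0.0167, 0.0133 and 0.0143 in controls and 0.0131, 0.0217 and 0.0201 in knockouts, and there the groups overlapped. A ratio shows unequal change of the types and not which of them changed.

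**Figure D3:**
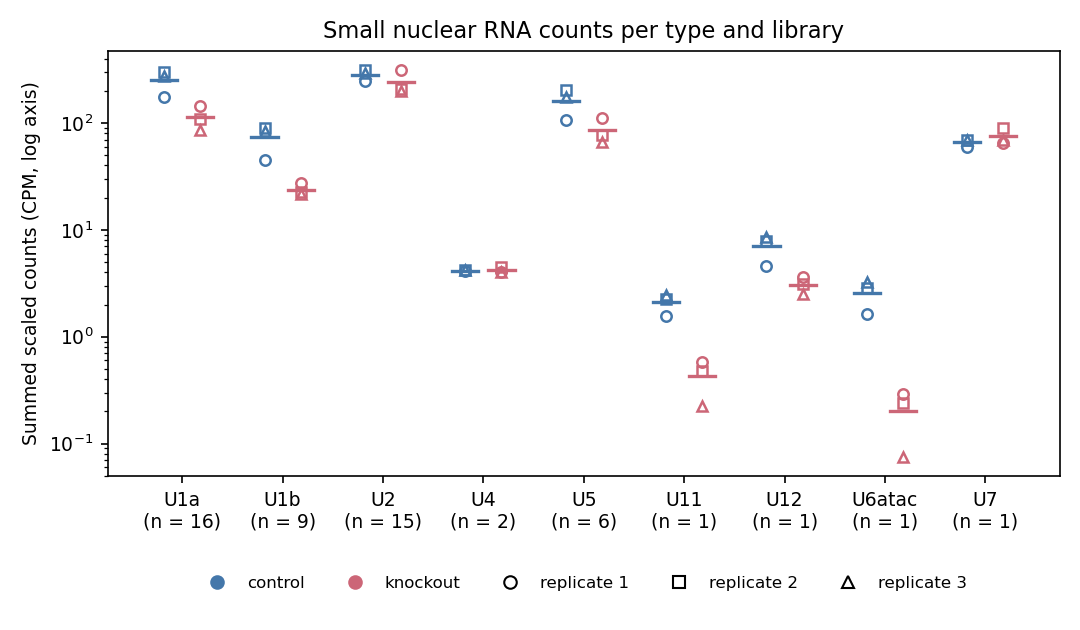
Summed level of all member genes of each snRNA type in each library, in CPM on a log axis, controls in blue and knockouts in red, with a bar at each group mean and the number of genes under each type. U2, U4, U5 and U7 overlap between the groups, and U11 and U6atac show wide gaps, from a lowest control of 1.56 CPM to a highest knockout of 0.581 CPM for U11.

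U5 holds the exons together in both spliceosomes. Of the 4 U5 genes tested of 6, 2 were lower, beside 27% of all tested features, and the median log2 fold change was -0.82. Gm25313 (ENSMUSG00000095738.1, chr9:65196572-65196687, - strand) was at 59.8, 113 and 96.2 CPM in controls and 57.3, 39.95 and 34.6 CPM in knockouts. The groups just failed to overlap, since the first control and the first knockout were almost equal. Its log2 fold change was -1.03 (SE 0.27, edgeR adjusted p = 0.00771), and with rRNA scaling the adjusted p was 0.0815, in a range from 8.44e-05 to 0.0815 over the 16 alternatives. Rnu5g (ENSMUSG00000095892.1, chr9:65201726-65201841, - strand) was at 29.4, 59.6 and 52.3 CPM in controls and 34.9, 21.4 and 18.1 CPM in knockouts. Here knockout replicate 1 lay above control replicate 1, and the other two knockouts lay below every control. The log2 fold change was -0.93 (SE 0.31, edgeR adjusted p = 0.0273). That call was lost in 6 of 16 alternatives, without control replicate 2 (adjusted p = 0.0887), control replicate 3 (0.0649), knockout replicate 2 (0.0986) or knockout replicate 3 (0.108) among them, and the adjusted p ran from 0.000313 to 0.198 over the 16 alternatives. The U5 genes on chromosome 4 were not called: Gm25099, named after its values were seen, had a log2 fold change of -0.71 (SE 0.28, edgeR adjusted p = 0.056), and passed the threshold in 6 of the 16 alternatives.

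U4, which keeps U6 inactive until the spliceosome is assembled, was represented by Gm24407 and Gm24265, 2 Gm-named genes side by side at chr5:115489459-115490394. Neither had a BLASTN match among the Rnu-named genes, and the type was assigned from knowledge of the U4 sequence after the values were seen. Gm24407 is shown with ATTTNT in capitals.
Gm24407: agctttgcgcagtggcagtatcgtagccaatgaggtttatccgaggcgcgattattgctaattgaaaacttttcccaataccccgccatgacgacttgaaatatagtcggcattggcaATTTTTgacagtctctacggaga
Gm24407 was at 1.76, 2.08 and 1.86 CPM in controls and 2.40, 3.01 and 1.88 CPM in knockouts, with a log2 fold change of 0.35 (SE 0.28, edgeR adjusted p = 0.318). Gm24265 was at 2.34, 2.08 and 2.35 CPM in controls and 1.67, 1.503 and 2.11 CPM in knockouts, with a log2 fold change of -0.36 (SE 0.27, edgeR adjusted p = 0.297). The groups overlapped for each gene, and the sign of each turned under at least 1 other scaling. Summed, U4 was at 4.16 ± 0.0568 CPM in controls and 4.19 ± 0.281 CPM in knockouts (SD, n = 3 each). U6, the catalytic partner of U2, could not be described, since Rnu6 had 0, 5 and 3 counts in controls and 2, 0 and 0 in knockouts and no U6 gene reached the minimum.

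The 3 minor spliceosome genes tested were all lower, with a median log2 fold change of -2.27. For the 41 major spliceosome genes tested the median was -0.93, and 21 were lower. Over all tested features 27% were lower. Rnu11 and Gm25541 reached the minimum of 30 through control counts alone, so the count and median of these 3 genes are a description and support no difference from the major genes. U11 recognises the 5′ splice site and U12 the branch point of the rare introns, and U6atac takes the place of U6. The U6atac gene, Gm25541, was typed like U4 from knowledge of its sequence after the values were seen. ATTTNT is in capitals where present, and Gm25541 does not contain it.
Rnu11: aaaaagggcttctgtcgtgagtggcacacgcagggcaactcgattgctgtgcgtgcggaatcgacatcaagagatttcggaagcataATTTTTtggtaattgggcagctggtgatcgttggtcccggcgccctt
Rnu12: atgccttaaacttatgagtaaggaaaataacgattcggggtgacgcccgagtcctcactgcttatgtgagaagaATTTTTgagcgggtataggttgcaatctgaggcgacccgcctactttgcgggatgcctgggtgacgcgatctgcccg
Gm25541: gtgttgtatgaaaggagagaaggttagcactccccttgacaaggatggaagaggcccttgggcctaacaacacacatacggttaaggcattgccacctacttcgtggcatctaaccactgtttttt

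Rnu11 (ENSMUSG00000077323.1, chr4:132270080-132270213, - strand) had 24, 40 and 45 raw counts in controls and 8, 6 and 3 in knockouts. Every knockout was well under every control, at 2.09 ± 0.471 CPM in controls and 0.427 ± 0.182 CPM in knockouts (SD, n = 3 each), with a log2 fold change of -2.27 (SE 0.40, edgeR adjusted p = 0.000535). An exon of the lincRNA Gm28872 lies on the other strand, and no source used here states whether the counting used strand, so reads of both genes cannot be told apart. Rnu12 (ENSMUSG00000065176.1, chr15:83149644-83149794, + strand) was at 4.55, 7.83 and 8.58 CPM in controls and 3.63, 3.09 and 2.48 CPM in knockouts. Its groups did not overlap, control replicate 1 again being nearest to the knockouts. Its log2 fold change was -1.19 (SE 0.29, edgeR adjusted p = 0.00495), with an adjusted p of 0.0634 with rRNA scaling and 0.0589 without the filter, in a range from 8.91e-05 to 0.0634 over the 16 alternatives.

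Gm25541 (ENSMUSG00000080538.1, chr2:27539805-27539930, - strand) had 25, 51 and 59 raw counts in controls and 4, 3 and 1 in knockouts. All 3 knockouts held fewer counts than any control. The means were 2.57 ± 0.840 and 0.201 ± 0.112 CPM (SD, n = 3 each), and the log2 fold change was -3.63 (SE 0.48, edgeR adjusted p = 8.69e-05). Of the 52 genes it is the only one whose annotated transcript ends in TTTT, an ending found in 34.1% of all annotated snRNA transcripts and usual at RNA polymerase III terminators. ATTTNT, searched on the sense strand, was found in 49 of the 52 genes, in 56.0% of the 1383 snRNA transcripts and in 10.9% of 1507 snoRNA transcripts.

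**Figure D4:**
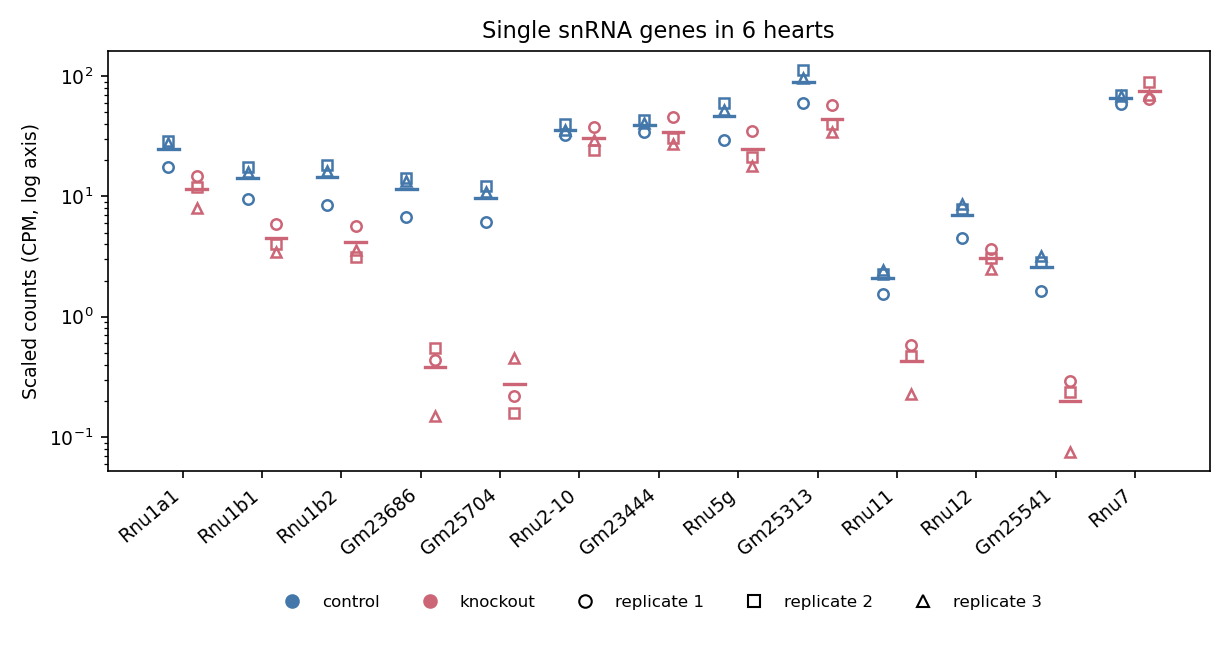
Level of 13 snRNA genes in each of the 6 hearts, in CPM on a log axis, controls in blue and knockouts in red, with a bar at each group mean. Gm23686, Gm25704, Rnu11 and Gm25541 lie below 1 CPM in all 3 knockouts and above 1 CPM in all 3 controls, while Rnu7 and Rnu2-10 overlap between the groups.

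U7, the guide for histone mRNA ends, was not called in either direction. Rnu7 is the only gene of the 52 that fits whole within the selected inserts, at 62 nt, with ATTTNT in capitals.
Rnu7: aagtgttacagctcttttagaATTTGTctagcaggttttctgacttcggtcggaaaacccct
Rnu7 (ENSMUSG00000089083.1, chr6:124741225-124741286, - strand) was at 59.2, 69.6 and 68.7 CPM in controls and 65.1, 90.1 and 69.7 CPM in knockouts. The groups overlapped, with the second knockout highest of all 6. The log2 fold change was 0.19 (SE 0.20, edgeR adjusted p = 0.449), it was -0.65 (adjusted p = 0.0143) with snoRNA and scaRNA scaling and 0.70 (adjusted p = 0.0231) with rRNA scaling, so its direction depends on the scaling. The adjusted p ran from 0.0143 to 0.992 over the 16 alternatives. Rnu7 overlaps an exon of Grcc10 on the same strand, and reads of Rnu7 and Grcc10 cannot be told apart. The authors' deposited table gives no fold change for it.

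By name, 6 of the 8 Rnu genes tested were lower, with a median log2 fold change of -1.14. Of the 37 Gm-named genes tested 18 were lower, with a median of -0.71. Over all tested features 27% were lower. The difference between these groups was not tested, and since many Gm-named genes share their whole sequence with an Rnu gene the names do not mark separate RNAs.

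Related nuclear RNAs are described in 2 lists, chosen with earlier results of these data known. The scaRNAs, which guide chemical modification of the spliceosomal snRNAs, had 11 genes tested of 51, with 0 lower and 0 higher by edgeR, 0 at an unadjusted p under 0.05 and 0 by DESeq2, and log2 fold changes from -0.22 to 0.50. Of 10 listed other nuclear or RNA polymerase III RNAs 8 were tested, and 6 were lower and 0 higher. Over all tested features 27% were lower and 23.2% higher. Rmrp and Rpph1 were not called, Rpph1 with a log2 fold change of 0.14 (SE 0.19, edgeR adjusted p = 0.577). Rn7sk, the RNA that holds a transcription elongation factor inactive, was at 990, 1605.5 and 1972 CPM in controls and 69.7, 59.0 and 35.4 CPM in knockouts. All 3 knockouts lay far under the controls, with a log2 fold change of -4.80 (SE 0.33, edgeR adjusted p = 8.28e-07). Rmrp, the RNA of RNase MRP, was at 463, 339 and 377 CPM in controls and 599, 509 and 479 CPM in knockouts, with a log2 fold change of 0.43 (SE 0.18, edgeR adjusted p = 0.0691).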

How the data were processed

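Small RNA of whole hearts of 3 control and 3 knockout mice was sequenced in paired ends. The authors deposited raw counts per feature, 1 column per mouse, and a table of their comparison with log2 fold changes and adjusted p-values, per the file headers. The submitters' processing notes name DESeq2 1.16.1, featureCounts 1.5.1, Bowtie2 2.2.9 and cutadapt 1.14, and build mm10. No source used here states the annotation, the strand setting, how reads with several alignments were placed or how the 4 technical replicates were merged.

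Counts of all features were fitted with edgeR 4.0.16 in R 4.3.3 (filterByExpr with a minimum count of 10 and a minimum total of 15, TMM factors, quasi-likelihood test, Benjamini-Hochberg adjustment over 1144 features, threshold 0.05, biological coefficient of variation 0.217). CPM are counts per 1000000 counts of the TMM-scaled library, and the standard error is the log2 fold change over the root of F. The procedure was tested on simulated data. Sequences and coordinates came from GENCODE M21 transcripts on GRCm38, the assembly that mm10 names. Copies were typed by BLASTN 2.17.0 (e-value limit 1e-05) against the Rnu genes. All Rnu genes tested were named, with the 3 most abundant Gm-named genes and up to 4 per direction with the largest change among called genes without overlap, and the genes at the limit of 30, and any other gene was named after its values were seen. Members and lists were chosen with earlier results of these data known. Alternatives were DESeq2 1.42.0, other scalings, no filter, a minimum sum of 100, a replicate block and leaving out libraries. The p-values measure the spread between these 6 mice. The U5 sequences are not reported here.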

Additional observations from a re-analysis of the deposited data

How the results depend on the processing

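The 24 lower and 0 higher calls and the median log2 fold change of -0.93 were recomputed. Total counts, DESeq2 factors, miRNA factors, factors without snRNA rows, a minimum sum of 100 and the DESeq2 test gave 23 to 28 lower and 0 higher calls. Of all 1144 features, 432 were lower and 170 higher with total counts, and 295 and 288 with factors without snRNA rows. The other settings of this list lay between these. Factors from snoRNA and scaRNA genes gave 41 lower calls, beside 57.6% of all features, and a median of -1.77. Without the filter 16 were lower with a median of -0.32, 15 of them among the 24. Of all features fitted there, 708 were lower and 433 higher. With rRNA factors, added after the data were seen, 10 were lower and 3 higher, beside 19.9% and 34.5% of all features, with a median of -0.45. Without the first library of both groups, also added, 23 were lower with a median of -1.12, and 491 of all features were lower and 308 higher. Leaving out each library gave 18 to 26 lower calls, medians from -0.99 to -0.53 and shares of 0.431 to 0.555 times the control share. Of all features, 261 lower and 225 higher were called without control replicate 3, the fewest. Without control replicate 1, 559 lower and 349 higher were called, the most. Medians of all features shifted by -0.34 with total counts and -0.18 with miRNA factors. Same-numbered mice did not deviate together (correlations -0.13, -0.02 and -0.19), and the replicate block gave 24 lower calls, a median of -0.94 and the same 24 genes. With the block, 294 of all features were lower and 242 higher. Among genes not called, the sign turned for Rnu2-10 without the filter (0.13), without knockout replicate 2 (0.15) and with rRNA factors (0.27). It turned for Gm23444 without the filter (0.16), without knockout replicate 2 (0.12) or 3 (0.15) and with rRNA factors (0.28), and for Gm23472 under the same settings (0.20, 0.14, 0.20 and 0.32). It turned for Rnu7 with total counts (-0.16), miRNA factors (-0.0028) and snoRNA and scaRNA factors (-0.65), for Gm24407 with the last of these (-0.49), and for Gm24265 without the filter (0.0085) and with rRNA factors (0.17). Leaving out each library moved Rnu2-10 between -0.27 and 0.15, Gm23444 between -0.22 and 0.15 and Gm23472 between -0.19 and 0.20. The cause of these changes was not tested. Counts of a few reads per knockout limit Rnu11, Gm25106, Gm25541, Gm25704 and Gm23686.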
